A study of Canis lupus familiaris with 6 samples.

Results

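The genes of the proteasome were examined in CPEK cells, a line of canine epidermal keratinocytes, after exposure to cold atmospheric microwave plasma (CAMP). The members were the protein-coding genes of the deposited gene table whose symbol is PSM followed by a letter from A to G and a number, and 48 of the 35993 genes in the table qualified, among 19550 protein-coding genes. They comprised 7 alpha and 7 beta subunits of the constitutive 20S core, 3 catalytic subunits of the immunoproteasome, 2 core subunits known for restriction to testis or thymus, 6 ATPases and 11 non-ATPase subunits of the 19S regulatory particle, 3 chaperones of 19S assembly, 4 chaperones of 20S assembly, 4 subunits of proteasome activators and 1 inhibitor. Wild-type cells in serum-containing DMEM were exposed directly to CAMP (dCAMP, 3 libraries) or to the gas without plasma (gas control, 3 libraries) for 30 s, received fresh medium 15 min later and were lysed for RNA after a further 24 h. Polyadenylated RNA was sequenced with a stranded kit. Gas 1, 2 and 3 held 45167120, 53166657 and 54082634 counts, and dCAMP 1, 2 and 3 held 46479197, 43084921 and 44692385. The labels do not say whether the 3 libraries of a group came from cultures treated on separate occasions, so the p-values measure the spread between these libraries, which may be technical. All libraries came from 1 cell line, and a change in the RNA per cell cannot be told apart from a change in the number of cells of a kind in such bulk samples.

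The proteasome is the protease that degrades proteins marked with ubiquitin. Its barrel-shaped 20S core is built from rings of alpha subunits, which form the gate, and rings of beta subunits, of which PSMB5, PSMB6 and PSMB7 carry the active sites. A 19S particle on the end of the barrel binds the ubiquitin chain, removes it and unfolds the substrate with a ring of ATPases, and the 20S core may instead bear the activators PA28 or PA200. In cells exposed to interferon, PSMB8, PSMB9 and PSMB10 replace the constitutive catalytic subunits and give the immunoproteasome, which makes peptides for MHC class I. The label of the cells was checked first against marker genes. The keratinocyte markers KRT5, KRT14, TP63, DSP, DSG3, CDH1, KRT17 and ITGB4 were all expressed. FPKM denotes fragments normalized to transcript length and to the mapped reads of a library, and the summed FPKM of these 8 markers was 25798, 23871 and 20311 in gas and 20256, 20241 and 19092 in dCAMP, with KRT5 as the most abundant. The 6 fibroblast markers summed to at most 0.961 FPKM in any library, with COL3A1 the highest and DCN, LUM and PDGFRB at 0 throughout. The 6 immune markers summed to at most 2.22 FPKM, with ITGAM the highest on average and PTPRC and CD3E at 0. The 4 melanocyte markers summed to at most 0.689 FPKM, with TYR and DCT at 0 and the highest value, 0.609 FPKM, that of MLANA in dCAMP 2, and the 4 endothelial markers to at most 3.13 FPKM, with VWF the highest and PECAM1 at 0.

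The gas libraries differed among themselves more than the dCAMP libraries did. Single genes are described by their CPM, which are counts brought to a common library size with edgeR's TMM factors. The coefficient of variation of CPM over the 3 libraries had a median of 11.9% in gas and 3.58% in dCAMP over the 45 proteasome genes tested, against 16.6% and 5.89% over all 14708 genes tested. Gas 1 stood apart in both directions. It was the lowest of the 6 libraries for 18 proteasome genes (40.0%; 39.2% of all genes tested) and the highest for 20 (44.4%; 36.9% of all genes tested). The counts over all proteasome genes and over the larger groups of subunits are therefore also given without single libraries.

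In dCAMP-treated cells, 12 proteasome genes were lower than in the gas control at an unadjusted p under 0.05, and no gene was higher. The 12 were PSMA7, PSMB2, PSMB3, PSMB6, PSMB7, PSMB10, PSMC3, PSMD3, PSMD7, PSMD8, PSMD13 and PSMG3. Their log2 fold changes (dCAMP minus gas) lay between −0.44 and −0.27, the log2 of a level 0.737 to 0.828 times that of the gas control. They made up 26.7% of the 45 genes tested, while 13.9% of all 14708 genes tested were lower by the same criterion and 6.81% were higher. After Benjamini-Hochberg adjustment of the edgeR quasi-likelihood p-values over all 14708 genes, no proteasome gene and no other gene (0%) had an adjusted p under 0.05, against 12 proteasome genes before adjustment. DESeq2 gave no proteasome gene at an adjusted p under 0.05 either, against 1.10% of all genes lower and 0.355% higher. The smallest adjusted p of a proteasome gene was 0.221 in edgeR and 0.0649, for PSMG3, in DESeq2. In the edgeR fit, none of the 45 proteasome genes passed before adjustment and also differed by at least 2-fold, against 1.09% of all genes, and leaving out 1 library at a time gave no such proteasome gene either (0.902% to 10.2% of all genes). PSMB8, which did not pass the filter on low counts, did both in DESeq2 (1.82% of all genes) and in edgeR without that filter (1.38% of all genes).

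Of the 45 genes, 29 had a log2 fold change below 0 (64.4%), as had 47.6% of all genes tested, and without 1 library 28 to 39 had. The median log2 fold change of the proteasome genes was −0.14, and that of all genes tested was 0.03. The 3 dCAMP libraries lay below the 3 gas libraries without overlap for 21 proteasome genes (46.7%; 20.9% of all genes tested) and above them for none (19.0% of all genes tested). All 48 genes together took 0.641%, 0.662% and 0.629% of the counts in gas 1, 2 and 3 and 0.597%, 0.616% and 0.598% in dCAMP 1, 2 and 3, and these shares did not overlap. The remaining 3 of the 48 genes did not pass the filter on low counts. PSMA8, the testis subunit of the alpha ring, and PSMB11, the thymus subunit of the beta ring, had no count in any library, which at these totals allows up to 3 counts a library or 0.0566 to 0.0700 CPM. PSMB8 is described with the immunoproteasome. Such limits cover counting error only.

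**Figure D1:**
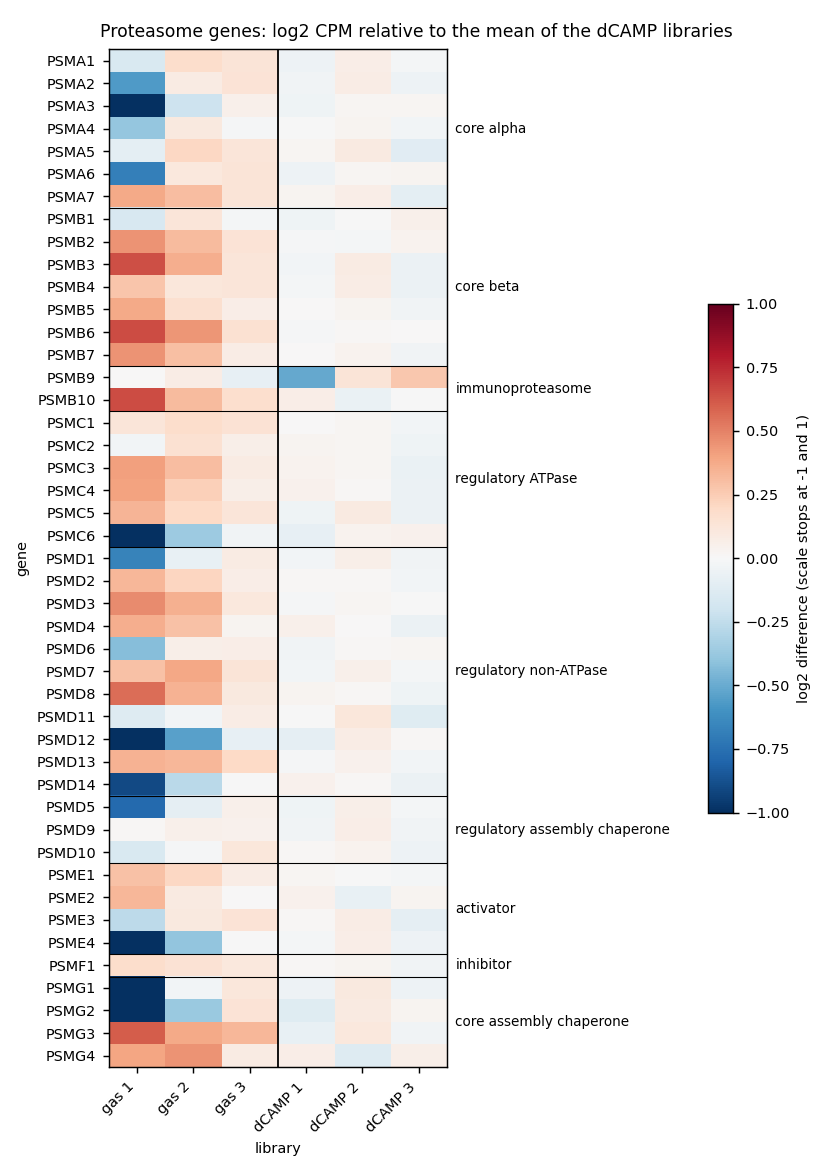
Log2 CPM of the 45 proteasome genes tested (rows, grouped by role) in each of the 6 libraries (columns), relative to the mean CPM of the 3 dCAMP libraries; red is above and blue below that mean, and the colour scale stops at −1 and 1. Gas 1 carries the strongest colours of both signs, being the highest library for 20 genes and the lowest for 18, while the 3 dCAMP libraries are nearly uniform.

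**Figure D2:**
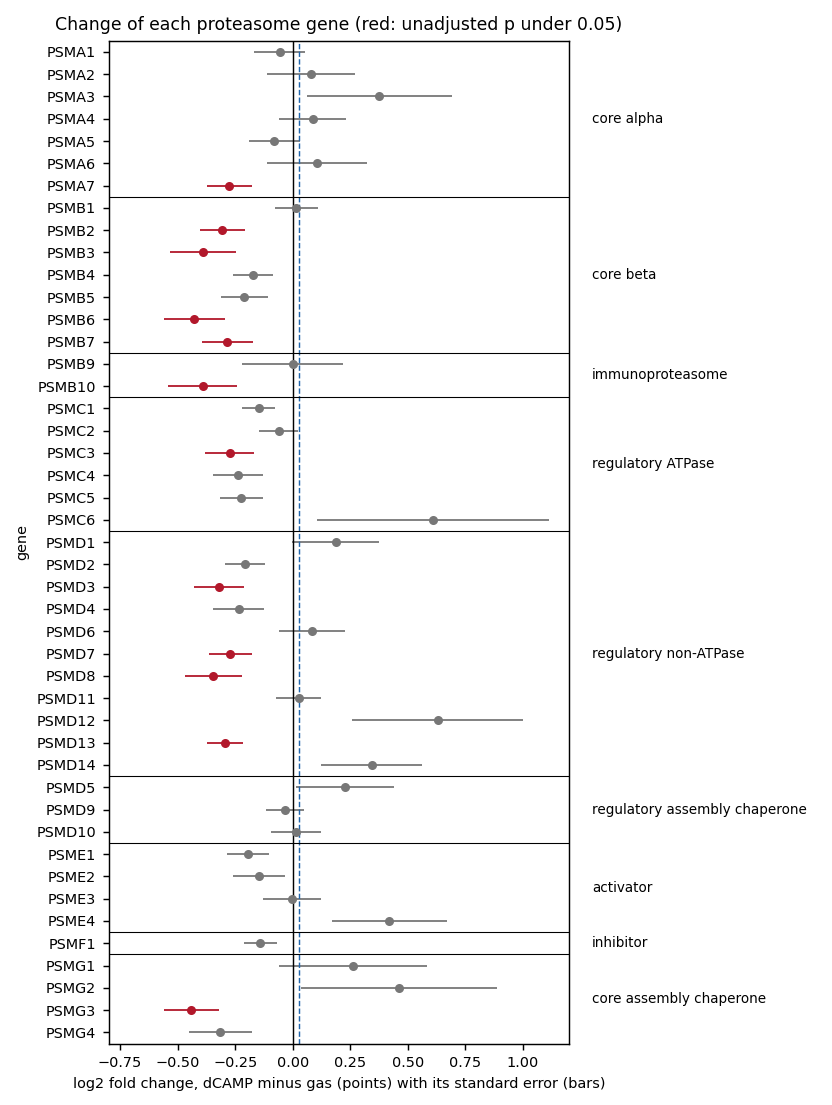
Log2 fold change of each proteasome gene (dCAMP minus gas, points) with its standard error (bars), grouped by role; the dashed line is the median of all genes tested, 0.03. The 12 genes with an unadjusted p under 0.05 (red) are all below 0, and the genes with the widest bars, PSMC6 and PSMG2, are above 0.

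The alpha subunits of the core, which form the outer rings and the gate, had a direction that depended on gas 1. Their median log2 fold change was 0.08, with 3 of the 7 genes below 0, and without gas 1 it was −0.13, with 6 of the 7 below 0. It was also −0.09 in the voom fit described below (0.02 over all genes), and 0.01 with upper-quartile factors (−0.06 over all genes). Of the 7, 1 was called lower (14.3%, near the 13.9% of all genes), and without gas 1 the dCAMP libraries of 5 lay entirely below the gas libraries (71.4%; 23.4% of all genes), against 1 with all libraries (14.3%; 20.9% of all genes). The median FPKM of the 7 genes was 108 ± 18.6 (SD, n = 3) in gas and 109.7 ± 3.65 in dCAMP. PSMA7 (chromosome 24, 46182344 to 46186241 in CanFam3.1, as are all positions here) encodes the alpha 4 subunit. It was expressed at 248, 236 and 209 CPM in gas and at 194, 200.4 and 178 CPM in dCAMP. Every gas library was above every dCAMP library, and the log2 fold change was −0.27 ± 0.10 (SE; adjusted p = 0.224). The other alpha subunits, PSMA1 to PSMA6, had log2 fold changes between −0.08 and 0.38 and overlapping libraries. PSMA3, chosen here after its values were seen, had 84.0, 177 and 211 CPM in gas and 198, 207 and 207 CPM in dCAMP, so that gas 1 alone lay far below the other libraries. The level of PSMA4 was 29.1 ± 0.618 FPKM in dCAMP, whereas the other alpha subunits lay between 94.3 and 175 FPKM. The row named PSMA4 in the gene table is 1 transcript of 810 bases on chromosome X (53245249 to 53246357), a locus of 1109 bases. Its gene identifier was the only one of the 48 that the later RefSeq annotation of the dog did not hold. That annotation has PSMA4 under another identifier, so this row may not be the gene of that name. The counts and medians of the alpha subunits include this row.

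The constitutive beta subunits had a median log2 fold change of −0.28. Of the 7 genes, 4 were called lower (57.1%; 13.9% of all genes) and 6 had dCAMP libraries entirely below the gas libraries (85.7%; 20.9% of all genes). Without 1 library, 0 to 6 were called lower (4.70% to 25.5% of all genes), and the count of 6 that did not overlap was the same in each case (22.4% to 32.6% of all genes). Among the groups of subunits, the beta subunits also had the highest median abundance per length, 209 ± 29.6 FPKM (SD, n = 3) in gas and 170.2 ± 5.75 FPKM in dCAMP. The means of the 7 genes lay within 156 to 207 FPKM in dCAMP, a range that also held PSMA3 (175 FPKM). PSMB6 (chromosome 5, 31776286 to 31778789), the catalytic beta 1 subunit with caspase-like activity, was expressed at 324, 279.9 and 229 CPM in gas and at 204, 208 and 207 CPM in dCAMP. The SD over the libraries was 47.4 CPM in gas and 1.68 CPM in dCAMP, and the lowest gas library was still above the highest dCAMP library. The log2 fold change was −0.43 ± 0.13 (SE; adjusted p = 0.221), a level of 0.743 times the gas control.

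PSMB7 (chromosome 9, 58529646 to 58593016), the catalytic beta 2 subunit with trypsin-like activity, was expressed at 260.1, 236 and 201 CPM in gas and at 191, 195 and 186 CPM in dCAMP. Its log2 fold change was −0.28 ± 0.11 (SE; adjusted p = 0.235). PSMB5 (chromosome 8, 3344157 to 3349921), the catalytic beta 5 subunit with chymotrypsin-like activity and the target of bortezomib, was expressed at 259.5, 223 and 209 CPM in gas and at 199.8, 203 and 194 CPM in dCAMP. The libraries of PSMB5 did not overlap either, but its unadjusted p was over 0.05, with a log2 fold change of −0.21 ± 0.10 (SE; adjusted p = 0.264). That fold change ranged from −0.32 to −0.135 without 1 library. Without gas 3 and under voom PSMB5 was lower at an adjusted p under 0.05, as were 18.1% and 28.2% of all genes. By that criterion 15.0% and 32.6% of all genes were higher in these fits. All 3 catalytic subunits therefore had gas 1 as the highest library and dCAMP libraries close to each other.

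Among the structural beta subunits, PSMB3 (beta 3; chromosome 9, 23474476 to 23484408) showed the largest difference. It was expressed at 209, 172 and 146 CPM in gas and at 132, 142 and 129 CPM in dCAMP, with a log2 fold change of −0.39 ± 0.14 (SE; adjusted p = 0.227). The lowest gas library was close to the highest dCAMP library. PSMB2 (beta 4; chromosome 15, 6511281 to 6544859) was expressed at 239, 218 and 192 CPM in gas and at 174, 173 and 179 CPM in dCAMP, with a log2 fold change of −0.31 ± 0.10 (SE; adjusted p = 0.221). PSMB4 (beta 7), at −0.17, did not overlap between the groups and was not called in the edgeR fit that gave the 12 genes. It was called lower under voom (30.4% of all genes) and without gas 3 (25.5% of all genes). PSMB1 (beta 6) differed from the other beta subunits in that its groups overlapped, and its log2 fold change was 0.02.

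The immunoproteasome subunits were expressed far below their constitutive counterparts. PSMB10 (beta 2i; chromosome 5, 81560750 to 81563571) was the most abundant at 16.3 ± 3.21 FPKM (SD, n = 3) in gas and 12.4 ± 0.474 FPKM in dCAMP. PSMB9 (beta 1i; chromosome 12, 2432287 to 2438920) had 1.78 ± 0.140 and 1.92 ± 0.551 FPKM, and PSMB8 (beta 5i; chromosome 12, 2419456 to 2422832) was at the limit of detection. PSMB10, whose locus overlaps another gene of the table, was one of the 12 genes called lower. It was expressed at 29.0, 23.0 and 20.8 CPM in gas and at 19.3, 17.7 and 18.5 CPM in dCAMP, with a log2 fold change of −0.39 ± 0.15 (SE; adjusted p = 0.232). PSMB9 was expressed at 1.88, 1.98 and 1.77 CPM in gas and at 1.32, 2.05 and 2.26 CPM in dCAMP. The dCAMP libraries of PSMB9 spanned those of the gas control, and its mean was 1.88 CPM in both groups (log2 fold change −0.0008 ± 0.22, SE; adjusted p = 0.998). PSMB8 had 9, 8 and 4 counts in gas 1, 2 and 3 and 0 in each dCAMP library. Against the floor of 3 counts a library, 0.0700 CPM in the shallowest dCAMP library, the 0.138 CPM of PSMB8 in the gas control was at least 1.97-fold higher, with its 21 counts taken as measured. With no filter on low counts its unadjusted p was 0.00955 in edgeR (adjusted p = 0.285), and DESeq2 gave an unadjusted p of 0.00304 and no adjusted p. PSMB8 thus had an unadjusted p under 0.05 in both of these fits. Unlike the genes tested, it failed the filter on low counts, and it had counts in gas only. It is therefore not read as a call, though the counts given below for both fits include it.

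The ratio of each immunoproteasome subunit to its constitutive counterpart was compared on FPKM. PSMB10 stood at 8.42%, 7.37% and 7.78% of PSMB7 in gas and at 7.61%, 6.81% and 7.49% in dCAMP. The mean log2 ratio differed by −0.10 between dCAMP and gas. PSMB9 stood at 0.518%, 0.709% and 0.871% of PSMB6 in gas and at 0.669%, 1.11% and 1.17% in dCAMP, a log2 difference of 0.48. Both sets of ratios overlapped between the groups, and an exact two-sided permutation test over the libraries gave p = 0.3 for each (0.3 after Benjamini-Hochberg adjustment). The smallest p that 3 against 3 libraries allow is 0.1. PSMB8 was at 0.0348% to 0.0716% of PSMB5 in gas, and no ratio was tested since it was listed at 0 in dCAMP.

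**Figure D3:**
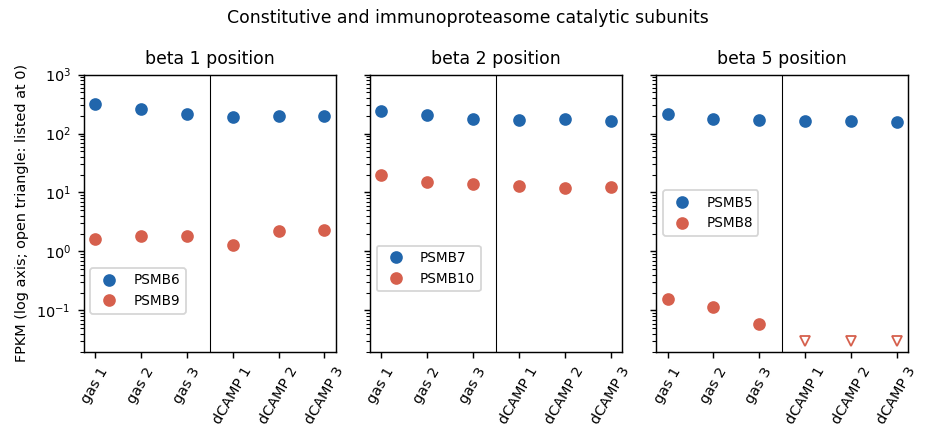
FPKM (log axis) of the 3 constitutive catalytic subunits (blue) and of the immunoproteasome subunit that takes the same position (red) in each of the 6 libraries; open triangles are libraries in which PSMB8 was listed at 0. In every library PSMB10 lies between 6.81% and 8.42% of PSMB7, PSMB9 between 0.518% and 1.17% of PSMB6, and PSMB8 at 0.0716% of PSMB5 or less.

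Of the 6 ATPases of the 19S particle, which unfold the substrate and open the gate of the core, 1 was called lower (16.7%, near the 13.9% of all genes) and 4 did not overlap between the groups (66.7%; 20.9% of all genes). Without 1 library, 0 to 4 were called lower (4.70% to 25.5% of all genes), the 4 without gas 3. In these cases 4 or 5 did not overlap in the lower direction (22.4% to 32.6% of all genes). The median log2 fold change was −0.19, and the median FPKM of the 6 was 84.3 ± 6.58 (SD, n = 3) in gas and 74.1 ± 1.79 in dCAMP. PSMC3 (RPT5; chromosome 18, 42212083 to 42218958) was expressed at 194, 180.0 and 154 CPM in gas and at 149, 148 and 139 CPM in dCAMP. Its log2 fold change was −0.27 ± 0.11 (SE; adjusted p = 0.235). PSMC1, PSMC4 and PSMC5 also had non-overlapping libraries, with log2 fold changes from −0.24 to −0.15, and PSMC2 was at −0.06. All 4 were called lower under voom (30.4% of all genes), and all but PSMC2 without gas 3 (25.5%). PSMC1 was also called by DESeq2 (10.6%) and without gas 1 (11.8%). PSMC5 was also called with upper-quartile factors (14.8%), with no filter on low counts (10.5%) and with a minimum of 10 counts in every library (15.4%). PSMC6 (RPT4), chosen after its values were seen, had the highest fold change of the ATPases, 0.61, with the widest error of all members (SE 0.50). It was expressed at 27.0, 100.0 and 126 CPM in gas and at 122, 132 and 132 CPM in dCAMP. Gas 1 was far below every other library, while gas 3 lay within the dCAMP range. A second gene of the table, LOC100687259, is described as the same subunit and had 28, 109 and 272 counts in gas and 270, 297 and 354 in dCAMP, so reads of the pair may have been divided between them.

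The 11 non-ATPase subunits of the 19S particle, which form its base scaffold and its lid, had a median log2 fold change of −0.21. Of these, 4 were called lower (36.4%; 13.9% of all genes) and 5 did not overlap (45.5%; 20.9% of all genes). Without 1 library, 1 to 6 were called lower (4.70% to 25.5% of all genes), and 5 or 6 did not overlap in the lower direction (22.4% to 32.6% of all genes). Without gas 3, 2 were called higher, where 23.8% of all genes were. PSMD13 (RPN9, a lid subunit; chromosome 18, 25388212 to 25401071) had the smallest p of all members. It was expressed at 202, 199 and 182 CPM in gas and at 157, 163 and 155 CPM in dCAMP, with a log2 fold change of −0.29 ± 0.08 (SE; adjusted p = 0.221). The gap between the groups was about as wide as the whole range of the gas libraries. PSMD13 was called in each of the 6 fits that left out 1 library.

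PSMD3 (RPN3, a lid subunit; chromosome 9, 22538368 to 22553221) was expressed at 263, 242 and 204 CPM in gas and at 188, 191 and 188 CPM in dCAMP, with a log2 fold change of −0.32 ± 0.11 (SE; adjusted p = 0.222). PSMD8 (RPN12, a lid subunit; chromosome 1, 114619478 to 114626082) was expressed at 247, 214 and 180.1 CPM in gas and at 171, 169 and 164 CPM in dCAMP, with a log2 fold change of −0.34 ± 0.13 (SE; adjusted p = 0.226). In both genes gas 1 was highest and gas 3 nearest to the dCAMP libraries. PSMD7 (RPN8, the partner of the deubiquitinase PSMD14; chromosome 5, 79785620 to 79793793) was expressed at 146, 155 and 131 CPM in gas and at 117, 123 and 117 CPM in dCAMP. Its log2 fold change was −0.27 ± 0.09 (SE; adjusted p = 0.223), and here gas 2 was the highest library.

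The ubiquitin receptor PSMD4 (RPN10) and the scaffold PSMD2 (RPN1) had log2 fold changes of −0.24 and −0.21. They were not called in the edgeR fit that gave the 12 genes. Both were called lower under voom (30.4% of all genes) and without gas 3 (25.5% of all genes). PSMD2 was also called with no filter on low counts (10.5% of all genes) and with the length correction (15.2% of all genes). PSMD12 and PSMD14, chosen after their values were seen, went the other way. PSMD12 (RPN5, a lid subunit) was expressed at 26.6, 58.9 and 81.1 CPM in gas and at 80.8, 90.3 and 86.7 CPM in dCAMP, with a log2 fold change of 0.63 ± 0.37 (SE; adjusted p = 0.314). PSMD14 (RPN11, which cuts the ubiquitin chain from the substrate) was expressed at 61.1, 94.8 and 114 CPM in gas and at 117, 115 and 109.6 CPM in dCAMP, with a log2 fold change of 0.34 ± 0.22 (SE; adjusted p = 0.336). In both genes gas 1 was the lowest library and gas 3 lay within the dCAMP range. PSMD1, PSMD6 and PSMD11 had log2 fold changes of 0.19, 0.08 and 0.03 and overlapping libraries, and without gas 1 they were at −0.02, −0.08 and −0.04.

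Chaperones of proteasome assembly differed in direction, and part of that split rested on gas 1. PSMG3 (chromosome 6, 15402839 to 15404366), which with PSMG4 helps the alpha ring to form, had the lowest log2 fold change of the 45 genes tested. It was expressed at 28.4, 24.2 and 23.4 CPM in gas and at 17.7, 20.0 and 18.2 CPM in dCAMP, all gas libraries being higher, with a log2 fold change of −0.44 ± 0.12 (SE; adjusted p = 0.221). PSMG3 was the other gene called in each of the 6 fits that left out 1 library. PSMG4 was at −0.31 without being called in the edgeR fit that gave the 12 genes, and its libraries did not overlap. It was called lower by DESeq2 (10.6% of all genes), under voom (30.4%) and with upper-quartile factors (14.8%). The same held on log2 of FPKM plus 1 (11.8%) and without gas 3 (25.5%). PSMG1 and PSMG2, which form the other heterodimer of alpha-ring assembly, were at 0.26 and 0.46, and at −0.06 and 0.08 without gas 1. PSMG2, chosen after its values were seen, was expressed at 10.8, 27.5 and 39.2 CPM in gas and at 32.8, 37.8 and 36.2 CPM in dCAMP, so that the gas libraries enclosed the dCAMP libraries. The 3 chaperones of the 19S base, PSMD5, PSMD9 and PSMD10, had log2 fold changes of 0.23, −0.03 and 0.01, and none was called. Without gas 1 all 3 were below 0, PSMD5 at −0.0025.

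None of the activators was called in the edgeR fit that gave the 12 genes (13.9% of all genes lower and 6.81% higher). Their median log2 fold change was −0.08. PSME1 was called lower and PSME4 higher under voom (30.4% and 34.5% of all genes) and without gas 3 (25.5% and 23.8% of all genes). PSME1 (chromosome 8, 4131197 to 4134001) and PSME2 (chromosome 8, 4137247 to 4141380), neighbouring genes for the alpha and beta subunits of PA28, which interferon is known to induce, had 64.1 ± 6.12 and 49.3 ± 7.01 FPKM in gas and 55.8 ± 0.526 and 44.3 ± 1.68 FPKM in dCAMP (SD, n = 3). PSME1 was expressed at 81.1, 76.2 and 69.5 CPM in gas and at 66.8, 66.0 and 65.2 CPM in dCAMP. Its libraries did not overlap, and its log2 fold change was −0.20 ± 0.09 (SE; adjusted p = 0.261), with a range from −0.30 to −0.16 without 1 library. The locus of PSME1 overlaps that of EMC9. PSME2 was expressed at 92.4, 77.9 and 73.4 CPM in gas and at 75.4, 69.7 and 74.9 CPM in dCAMP, with overlap and a log2 fold change of −0.15 ± 0.11 (SE; adjusted p = 0.396), which was −0.06 without gas 1 and −0.26 without gas 3.

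PSME3 (chromosome 9, 20185997 to 20193320), the nuclear PA28 gamma, was expressed at 171, 219 and 226 CPM in gas and at 207, 215 and 193 CPM in dCAMP. Its mean was 205 CPM in both groups (log2 fold change −0.0032 ± 0.12, SE; adjusted p = 0.987). PSME4 (chromosome 10, 54873093 to 54960030), which encodes the nuclear activator PA200, was expressed at 37.2, 58.5 and 76.8 CPM in gas and at 76.0, 80.4 and 74.3 CPM in dCAMP. Gas 1 was the lowest and gas 3 lay among the dCAMP libraries, and the log2 fold change was 0.42 ± 0.25 (SE; adjusted p = 0.317). PSMF1 (PI31, an inhibitor of the 20S core in vitro; chromosome 24, 19817104 to 19863632) was expressed at 157, 154 and 149.9 CPM in gas and at 140.2, 142 and 136 CPM in dCAMP. The locus of PSMF1 overlaps another gene. Its libraries did not overlap and were close to each other within each group, with a log2 fold change of −0.14 ± 0.07 (SE; adjusted p = 0.280). PSMF1 was not called in the edgeR fit that gave the 12 genes. It was called lower under voom (30.4% of all genes), with the length correction (15.2%) and without gas 3 (25.5%).

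The counts of called genes changed when a single library of either group was left out. Without gas 1, 11 proteasome genes were lower (24.4%; 11.8% of all genes tested) and none was higher (8.75% of all genes tested). Of these 11, 10 were among the 12, with PSMB7 and PSMC3 lost and PSMC1 gained. The number of genes with a log2 fold change below 0 rose from 29 to 39 of 45 (86.7%; 48.9% of all genes tested), and the 10 that turned from above to below 0 were PSMA2, PSMA4, PSMA6, PSMB1, PSMD1, PSMD5, PSMD6, PSMD10, PSMD11 and PSMG1. PSMA3, PSMC6, PSMD12 and PSME4 had log2 fold changes of 0.06, 0.17, 0.28 and 0.17 without gas 1. Without gas 2, 3 genes were lower (6.67%; 5.82% of all genes tested), PSMB6, PSMD13 and PSMG3, and none was higher (2.43% of all genes tested).

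Without gas 3, 22 proteasome genes were lower (48.9%; 25.5% of all genes tested), including all 12, and 3 were higher (6.67%; 23.8% of all genes tested), PSMD12, PSMD14 and PSME4. In that fit 19 genes were lower at an adjusted p under 0.05 (42.2%; 18.1% of all genes tested) and none was higher (15.0% of all genes tested). Without dCAMP 1, 2 and 3, the number lower was 2 (4.44%; 5.75% of all genes tested), 4 (8.89%; 6.57% of all genes tested) and 3 (6.67%; 4.70% of all genes tested), and none was higher (2.48%, 3.04% and 2.16% of all genes tested). The share of proteasome genes called lower was thus within 3 percentage points of that of all genes in 4 of the 6 fits that left out 1 library. The median log2 fold change of the proteasome genes was −0.15, −0.15 and −0.17 without dCAMP 1, 2 and 3, against −0.14 with all libraries. Without gas 1, 2 and 3 it was −0.14, −0.16 and −0.20.

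**Figure D4:**
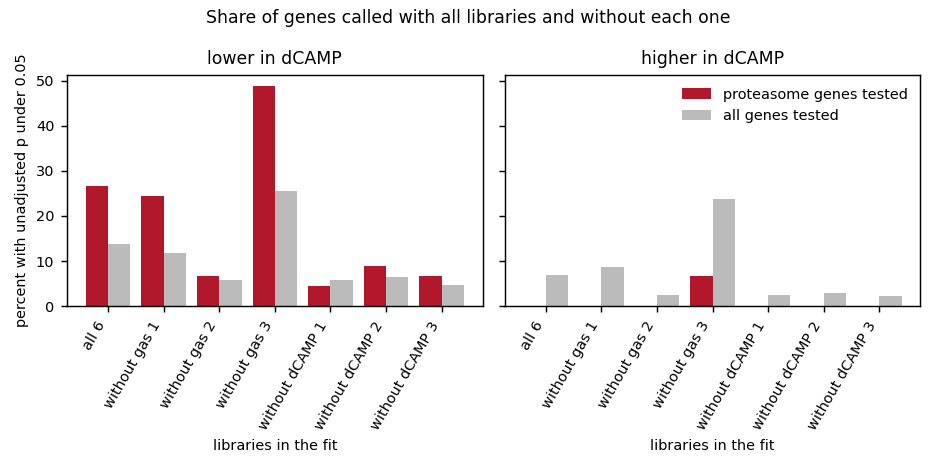
Percent of the 45 proteasome genes tested (red bars) and of all genes tested (grey bars) with an unadjusted p under 0.05, lower (left) or higher (right) in dCAMP, with all 6 libraries and without each one. Without gas 3 the red bar for lower genes reaches 48.9% against 25.5% of all genes, and without gas 2 or any dCAMP library it is at 4.44% to 8.89%.

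The position of gas 1 also varied with gene length over the whole table. In the shortest 3677 of all genes tested, gas 1 had a median deviation of 0.13 (log2) from the mean of the 6 libraries, and in the longest 3677 one of −0.20. The other libraries varied too. Gas 2 went from 0.08 to −0.09 and gas 3 from −0.0024 to 0.0761. The dCAMP libraries 1, 2 and 3 went from −0.0256, −0.0268 and −0.0217 to 0.12, 0.08 and 0.12. The median log2 fold change was −0.08 and 0.18 in those groups of genes. The proteasome genes were short, with a median length of 1472 bases as implied by counts and FPKM, against 2859 bases for all genes tested. Gas 1 was below the dCAMP mean by a factor of more than 1.2 for 13 proteasome genes (28.9%; 40.5% of all genes tested), whose median length was 1475 bases, and above it by more than that factor for 21 (46.7%; 34.9% of all genes tested), whose median length was 1272 bases. The factor was chosen after the values were seen, and the lengths moved with it. At a factor of 1.5, 10 proteasome genes were below (22.2%; 30.6% of all genes tested), with a median length of 2116 bases, and 4 were above (8.89%; 9.10% of all genes tested), with a median length of 989 bases. At the factor of 1.2, the genes below included 4 alpha subunits, the row named PSMA4 among them. Those above included 6 of the 7 constitutive beta subunits. With a correction for length, 10 proteasome genes were lower (22.2%; 15.2% of all genes tested) and none was higher (5.89% of all genes tested). With that correction and the replicate number as a block, 2 were lower (4.44%; 10.1% of all genes tested), PSMB6 and PSMD3, and 1 was higher, PSMD12 (2.22%; 10.6% of all genes tested).

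Other fits to all 6 libraries gave the following counts of proteasome genes lower in dCAMP at an unadjusted p under 0.05, with the share of all genes tested in brackets. The voom fit of limma with a quality weight for each library gave 26 lower (30.4%) and 6 higher (34.5%), PSMA3, PSMC6, PSMD12, PSMD14, PSME4 and PSMG2. At an adjusted p under 0.05 it gave 25 lower (28.2%) and the same 6 higher (32.6%). With the replicate number as a block, 11 were lower (9.31%) and none higher (9.56%). DESeq2 gave 15 lower (10.6%), RLE factors 12 (13.9%), upper-quartile factors 14 (14.8%), no filter on low counts 15 (10.5%), a minimum of 10 counts in every library 13 (15.4%), and limma on log2-transformed FPKM gave 11 (11.8%) with a pseudocount of 1 and 10 (11.8%) with 0.1. None was higher in these 7 fits, against 6.65%, 6.88%, 6.71%, 5.34%, 7.10%, 11.9% and 10.7% of all genes in the same order. DESeq2 and the fit with no filter covered 46 members, PSMB8 among those lower, and 20284 genes, so their shares include genes of low count. The minimum of 10 counts left 13616 genes, and the other fits covered 45 members and 14708 genes.

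Genes that work with the proteasome were taken from 3 lists, 21 proteasome partners, 11 genes of MHC class I antigen processing and 5 ubiquitin and ubiquitin-activating genes. Of these 37 genes, all tested, 8 were lower (13.9% of all genes tested) and 1 was higher (6.81% of all genes tested) at an unadjusted p under 0.05. Among the partners, whose median log2 fold change was 0.10, 3 were lower and none was higher. Without gas 1 that median was 0.01, without gas 2 it was 0.21, and without gas 3, where 25.5% of all genes were lower and 23.8% higher, 5 partners were lower and 6 higher. ADRM1 (RPN13), a ubiquitin receptor of the 19S particle, was expressed at 199, 178 and 139 CPM in gas and at 134, 132 and 132 CPM in dCAMP (log2 fold change −0.37, adjusted p = 0.229). The others called lower were the shuttle factor UBQLN4 (−0.32) and PITHD1 (−0.30). The dCAMP libraries lay entirely below the gas libraries for 5 partners (23.8%; 20.9% of all genes), ADRM1, PAAF1, PITHD1, UBQLN4 and VCP. They lay entirely above for 3 (14.3%; 19.0% of all genes), UCHL5, ZFAND5 and UBQLN2. The deubiquitinase USP14 was expressed at 27.8, 104 and 148 CPM in gas and at 145, 145 and 147 CPM in dCAMP (0.64, adjusted p = 0.429), and the maturation factor POMP at 25.4, 79.9 and 112 CPM in gas and 111, 124 and 123 CPM in dCAMP (0.71, adjusted p = 0.355). For both, gas 1 was the low library, and gas 3 was at or above the lowest dCAMP library. Without gas 1 the log2 fold changes were 0.19 for USP14 and 0.29 for POMP, and without gas 3 they were 1.11 and 1.13. NFE2L1, the transcription factor known to raise proteasome genes when proteasome activity falls, had a log2 fold change of −0.08 (adjusted p = 0.654), and NFE2L2, the oxidative stress factor NRF2, one of 0.23 (adjusted p = 0.346). The libraries of both factors overlapped, and without gas 1 the values were 0.0124 and 0.0640.

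Of the genes of MHC class I antigen processing, 3 of 11 were lower (13.9% of all genes) and 1 was higher (6.81% of all genes), with a median log2 fold change of −0.09 that was 0.05 under voom. No gene of this list was lower without gas 2 or without any of the dCAMP libraries (4.70% to 6.57% of all genes), and 1 was on the FPKM scale (11.8% of all genes). The chaperones CALR (−0.29) and TAPBP (−0.21) and the interferon-response factor IRF1 (−0.39) were lower, and NLRC5, the transactivator of MHC class I genes, was higher at 0.37. NLRC5 was weakly expressed, with 2.98, 2.28 and 2.56 CPM in gas and 3.17, 3.66 and 3.32 CPM in dCAMP. It did not pass without gas 3. No gene of this list was higher under DESeq2, RLE or upper-quartile factors, or with either other filter (5.34% to 7.10% of all genes). The same held with the replicate block, the length correction alone and on the FPKM scale (5.89% to 11.9% of all genes). Of the 5 ubiquitin genes, UBB (−0.32) and the activating enzyme UBA1 (−0.24) were lower (13.9% of all genes) and none was higher (6.81% of all genes). The median was −0.20. UBA6 of this list, chosen after its values were seen, was at 0.93 (adjusted p = 0.343). Every dCAMP library of UBA6 lay above every gas library (19.0% of all genes). It was called higher without gas 1 (0.45; 8.75% of all genes) and without gas 3 (1.49; 23.8% of all genes). UBA1 was not called without gas 1, and no ubiquitin gene was lower without gas 2 or any dCAMP library (4.70% to 6.57% of all genes). UBB was expressed at 729, 663 and 552 CPM in gas and at 533, 527 and 494 CPM in dCAMP. The keratins KRT5 and KRT14, with log2 fold changes of −0.21 and −0.30, were also lower and the desmosomal cadherin DSG3 higher (0.52) at an unadjusted p under 0.05. By the same criterion, among the weakly expressed markers of other cell types, the collagen gene COL1A1 was lower (−0.68). ITGAM of myeloid cells (0.38) and CDH5 (0.69) and KDR (0.45) of endothelium were higher. Without 1 library, 0 to 4 of the 8 keratinocyte markers were lower (4.70% to 25.5% of all genes), and on the FPKM scale none was (11.8% of all genes). COL1A1, CDH5 and KDR did not pass without gas 1, and neither did ITGAM, CDH5 and KDR without gas 3. MLANA of melanocytes had 4, 0 and 0 counts in gas and 13, 16 and 11 in dCAMP. It passed the filter on low counts only through dCAMP and failed a minimum of 10 counts in every library. Its unadjusted p under 0.05 is therefore not counted as a call, and no fold change is given. The part of these markers in the difference of the proteasome genes was not tested.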

How the data were processed

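Per the labels and the submitters' processing notes, the authors trimmed the reads with Trimmomatic 0.38, removed PCR duplicates, mapped reads to CanFam3.1 with HISAT2 2.1.0 and summarized known transcripts with StringTie 2.1.3b. The deposited read counts per gene and per transcript were whole numbers without normalization, and the deposited FPKM values were scaled by the authors for length and mapped reads. Each table also held 6 columns of TPM, which no step read. How reads on overlapping genes or strands were counted is not given in the sources used here.

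Counts were analysed in R 4.3.3 with edgeR 4.0.16 (TMM, filterByExpr, which kept 14708 genes, quasi-likelihood test, prior count of 2, Benjamini-Hochberg adjustment over all of them), and steps were tested on simulated data. Alternatives were DESeq2 1.42.0, limma 3.58.1 (voom with sample quality weights, and log2 of FPKM plus 1 or 0.1), RLE and upper-quartile factors, 2 other filters, a replicate block, a length correction (lowess span 0.3) with and without the block, and leaving out each library. All 48 members were named. Full statistics are given for those with an unadjusted p under 0.05 and for the catalytic, immunoproteasome (PSMB8 only in fits without the filter), activator and inhibitor genes. Of the 37 genes in other lists, those under 0.05 were named with NFE2L1, NFE2L2, POMP, ADRM1 and USP14. UBA6 was added after its values were seen. Partners whose libraries did not overlap were also named. Members and lists were chosen with earlier results of these data known. Results for 2 other genes of these lists are not reported here, and the counts leave them out. DDI2, also on a list, was not found in the table, and ECPAS was taken as KIAA0368. Positions come from the deposited transcript table. A search of promoters for motifs was not run.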

Additional observations from a re-analysis of the deposited data

How the results depend on the processing

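The adjusted p-values of all proteasome genes were over 0.05 in every fit except voom with sample quality weights and the fit without gas 3, so the calls rest on unadjusted p-values. The direction of the 12 genes called lower was the same in all fits. Counts of called genes moved most under voom, which weighted gas 1 and gas 3 at 0.115 and 0.192 and gas 2 at 6.73. It gave 26 proteasome genes lower (30.4% of all genes) and 6 higher (34.5% of all genes), of which 25 and 6 at an adjusted p under 0.05. The length correction with the replicate block gave 2 lower (10.1%) and 1 higher (10.6%). The other fits with all libraries gave 10 to 15 lower (9.31% to 15.4%) and 0 higher (5.34% to 11.9%). The 15 lower, under DESeq2 and with no filter on low counts, included PSMB8. Leaving out 1 library gave 2 to 22 lower (4.70% to 25.5%), 0 to 3 higher (2.16% to 23.8%) and 0 to 19 lower at an adjusted p under 0.05 (0% to 18.1%).

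Of the 37 other genes of the pathway, the number lower was 16 under voom (30.4% of all genes), 5 with the replicate block (9.31%), 3 with the length correction and block (10.1%), 4 on log2 of FPKM plus 1 or plus 0.1 (11.8%), and 0 to 11 without 1 library (4.70% to 25.5%). The number higher was 14 under voom (34.5%), 0 under DESeq2, RLE, upper-quartile factors, both other filters, the block and the length correction alone (5.34% to 9.56%), and 0 to 8 without 1 library (2.16% to 23.8%). With upper-quartile factors the median log2 fold change was −0.23 for all members, −0.21 for the constitutive core, −0.30 for the 19S subunits, −0.28 for the ATPases, −0.30 for the non-ATPases and −0.16 for the activators. The median of all genes tested was also lower with these factors, at −0.06, against 0.03 in the edgeR fit that gave the 12 genes.

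Without 1 library the medians ranged from −0.20 to −0.14 for all members, −0.13 to 0.15 for the alpha subunits, −0.42 to −0.22 for the beta subunits, −0.31 to −0.11 for the immunoproteasome, −0.26 to −0.17 for the ATPases, −0.32 to −0.16 for the non-ATPases, −0.06 to 0.03 for the 19S chaperones, −0.12 to −0.0887 for the activators, −0.18 to 0.05 for the 20S chaperones, −0.20 to −0.13 for the constitutive core and −0.32 to −0.17 for the 19S subunits. The number of genes with non-overlapping libraries was 21 to 28 lower (22.4% to 32.6% of all genes) and 0 to 8 higher (20.7% to 35.9%), and with upper-quartile factors, deposited FPKM and the length correction it was 1, 2 and 1 higher (18.0%, 19.9% and 15.7%). The log2 ratio of PSMB9 to PSMB6 ranged from 0.28 to 0.74 and that of PSMB10 to PSMB7 from −0.15 to −0.05.

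The log2 fold change of PSMB9, near 0, turned to 0.0511 and 0.0235 with the length correction without and with the block, and to 0.0513 and 0.0620 on log2 of FPKM plus 1 and plus 0.1. Without 1 library it ranged from −0.19 to 0.20. That of PSME3 turned to 0.006 with the block and 0.003 and 0.0031 on the FPKM scales, and ranged from −0.14 to 0.0254 without 1 library. The cause was not tested.

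The labels give both groups the numbers 1 to 3. Deviations from the group means correlated at 0.13, 0.02 and 0.05 between libraries of the same number, and gas 1 and gas 2 each correlated best with the dCAMP library of their own number but gas 3 with dCAMP 2 (0.09). Not every pair was over 0.1 and the labels name no shared batch, so the libraries were taken to share only a number. With the replicate block, 11 proteasome genes were lower (9.31% of all genes) and 0 higher, against 12 and 0 without it.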

Other observations

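Transcript shares, estimated by the authors from reads that fit several isoforms, varied among the gas libraries for a few of the 15 proteasome genes with more than 1 listed transcript. These genes were chosen after their values were seen, and no test was made. For PSMD6 (RPN7, a lid subunit), the transcript XM_005632354 took 46.6%, 36.0% and 25.5% of the counts in gas and 24.3%, 25.1% and 27.6% in dCAMP. For PSMD4, the transcript XM_022404308 took 24.4% of the counts in gas 2 and between 2.49% and 4.86% in the other libraries. For PSMC6, the transcript XM_022422008 took 48.9%, 17.6% and 40.4% in gas and 22.2%, 23.1% and 56.9% in dCAMP, so its share varied within both groups.

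Other loci resemble proteasome genes and had counts of their own. The PSMC1 pseudogene LOC478703 had 43, 77 and 79 counts in gas and 85, 81 and 96 in dCAMP, and the PSMB3 pseudogene LOC474987 had 37, 38 and 49 in gas and 27, 26 and 30 in dCAMP. These counts are small beside those of PSMC1 and PSMB3, and how reads were divided between such copies is not given in the sources used here. The loci of 13 of the 48 proteasome genes overlap another gene of the table, among them PSMB10, PSME1 and PSMF1.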
